A study of Homo sapiens with 10 samples.

Results

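The YTH domain genes YTHDF1, YTHDF2, YTHDF3, YTHDC1 and YTHDC2 were followed in RNA and m6A-seq libraries of A549, a human lung adenocarcinoma cell line, and of A549/DDP, its cisplatin-resistant counterpart (DDP is cisplatin). The 5 genes were chosen as the human genes with a YTH domain and matched by symbol, and each matched 1 of the 58037 gene identifiers in the deposited tables. Of the 10 libraries used, 2 A549 inputs and 2 A549/DDP inputs held RNA without pulldown. A further 2 m6A-seq libraries of each line held RNA fragments pulled down with an antibody against N6-methyladenosine. For 2 further A549 inputs, here called the second pair, no experiment is named in the labels, and they entered only as an alternative. Cells of both lines were at passage 10 or below, and neither a drug dose nor a treatment at harvest is given for A549/DDP in the labels, so the contrast is that of 2 cell lines. The labels give A549 as the cell line of the A549/DDP inputs, whose titles and cell type name the resistant cells.

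The YTH domain is a fold whose aromatic pocket binds N6-methyladenosine, or m6A, the most common internal mark of messenger RNA. Proteins with this fold are called m6A readers. YTHDF1, YTHDF2 and YTHDF3 are close paralogs of the cytoplasm, linked to translation and to decay of marked messages. YTHDC1 is the nuclear reader, linked to splicing and export, and YTHDC2 is a larger protein with a helicase domain, best known from the germline.

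In the A549/DDP inputs YTHDC1 RNA was 4.79-fold lower than in the A549 inputs, while none of the other 4 readers passed the test at the gene level. At least 1 m6A peak was called at YTHDF1, YTHDF2, YTHDF3 and YTHDC1 in every list of both lines, and no peak was called at YTHDC2 in any list. YTHDC1 was the leading YTH transcript per length in A549, and it no longer was in A549/DDP.

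The 250 bases upstream of the gene start are shown for YTHDC1, whose RNA differed between the lines, and for YTHDC2, whose RNA did not pass the test, because both hold the same motif. The sequences are those of RefSeq, build GRCh38.p14. Promoter windows were taken for 4 of the 5 genes, 5 windows in all. YTHDF3 was left out of this search, so nothing is said of its promoter. YTHDC1 lies on the minus strand of chromosome 4 (chr4:68350091-68350340 upstream of the start) and YTHDC2 on the plus strand of chromosome 5 (chr5:113513444-113513693). Capitals mark TGACGTCA, the full cAMP response element, which reads the same on both strands.
YTHDC1: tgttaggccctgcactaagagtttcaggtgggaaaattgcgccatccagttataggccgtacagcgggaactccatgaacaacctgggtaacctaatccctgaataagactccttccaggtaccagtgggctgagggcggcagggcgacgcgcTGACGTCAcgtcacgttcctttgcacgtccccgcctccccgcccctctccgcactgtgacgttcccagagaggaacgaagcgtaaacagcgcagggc
YTHDC2: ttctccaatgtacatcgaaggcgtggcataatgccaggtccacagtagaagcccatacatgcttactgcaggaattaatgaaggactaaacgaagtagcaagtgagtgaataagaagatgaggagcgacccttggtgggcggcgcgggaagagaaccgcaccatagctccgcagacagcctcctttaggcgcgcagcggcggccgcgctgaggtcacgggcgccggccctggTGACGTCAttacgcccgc

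The element began 97 bases before the gene start in YTHDC1 and 18 bases before it in YTHDC2. Both strands of windows of 300 bases, 250 before and 50 after the start, were searched for TGACGTCA and for 3 other motifs, the E-box CACGTG, the GC box GGGCGG and the TATA box TATAAA, all chosen after these sequences were seen. TGACGTCA was present in 1.85% of all 35116 windows, CACGTG in 7.26%, GGGCGG in 45.0% and TATAAA in 11.5%. The windows of YTHDF1 and YTHDF2 held no TGACGTCA, and that of YTHDF1 held 1 E-box. Every one of the 5 windows held at least 1 GC box and none held TATAAA. A match is a description of the letters, and the motif was present in a gene that was lower in A549/DDP and in one that did not pass the test.

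The libraries behind these values differed widely in depth. Total expected counts on genes were 34570074 and 35286514 in the A549 inputs and 29225501 and 33971561 in the A549/DDP inputs, of which at most 0.055% fell on mitochondrial genes. In the second pair of A549 inputs they were 855034 and 982036, with 75.2% and 73.9% on mitochondrial genes, and a YTH gene had 6 to 30 counts there. Nothing in the labels says that replicates came from separate cultures, so p-values measure the spread between these libraries, which may be technical. Epithelial keratins KRT8 and KRT18 had at least 47287 counts in each of the 4 deep inputs, whereas of 4 lung markers NKX2-1 and SFTPC had 0 or 1 count, SFTPB had 30 counts in A549/DDP replicate 1 and 0 in the other 3, and NAPSA had 0 to 66. PTPRC and PECAM1, markers of leukocytes and endothelium, had 0 to 5 counts. The fibroblast collagen COL1A1 had 234 to 526 counts, the muscle gene DES 0 to 30 and CDKN2A, whose locus is deleted in A549, 0 to 11. KRT8, KRT18 and CDH1 were higher in A549/DDP (log2 fold changes of 1.57, 1.18 and 2.26, adjusted p = 0.0324, 0.0146 and 0.0220 in edgeR). KRT19 had 966 and 1457 counts in A549 and 213 and 0 in A549/DDP, a log2 fold change of -3.30 that did not pass the test (adjusted p = 0.221 in edgeR), and EPCAM was at -0.07 (adjusted p = 0.974). The part of these markers in the values of the YTH genes was not tested.

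Levels of different genes were compared as TPM, the transcript share that the authors scaled for length and depth. In A549 replicates 1 and 2 YTHDC1 was at 292 and 209 TPM. YTHDF1, known for promoting translation of its targets, was at 48.4 and 43.6 TPM, and YTHDF3 was at 59.6 and 32.2 TPM. YTHDF2, known for bringing the CCR4-NOT deadenylase to marked RNA, was at 41.8 and 33.3 TPM and YTHDC2 at 24.4 and 27.8 TPM. Both YTHDC1 values thus lay above every other reader and both YTHDC2 values below. YTHDF1 lay above YTHDF2, and the wide range of YTHDF3 enclosed both.

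In A549/DDP replicates 1 and 2 the order was another one. YTHDF3 led with 65.3 and 63.2 TPM, a lead that holds only after scaling for estimated transcript length. Its expected counts, 2266 and 2202, were below those of YTHDF1, 2614 and 3284, and of YTHDC1, 2442 and 2913. YTHDC1, at 47.0 and 43.0 TPM, overlapped YTHDF1, at 42.7 and 46.0 TPM. YTHDF2 followed with 39.7 and 31.8 TPM and YTHDC2 with 19.3 and 22.0 TPM. Of the neighbours in this order, YTHDC1 and YTHDF1 did not differ beyond the spread of their libraries.

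**Figure D1:**
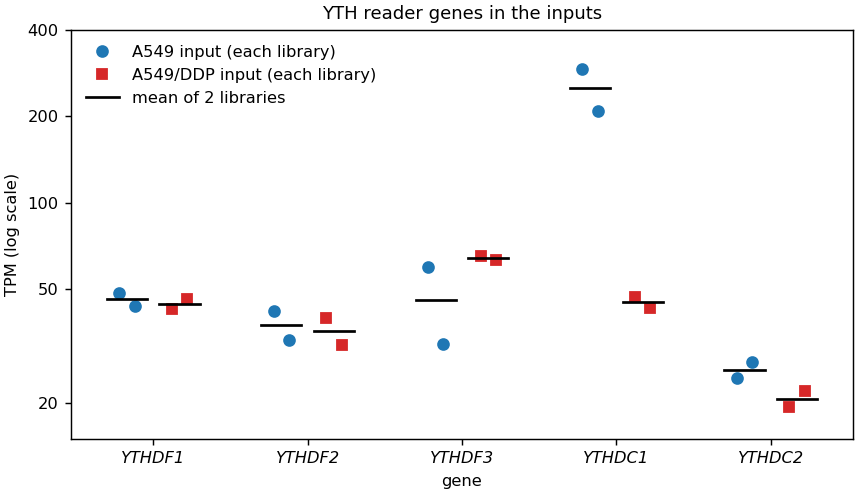
TPM (log axis) of the 5 YTH genes in each A549 input (circles) and each A549/DDP input (squares), with the mean of the 2 libraries of a line as a bar. YTHDC1 sits at 209 and 292 TPM in A549 and at 43.0 and 47.0 TPM in A549/DDP, while the libraries of the lines overlap for YTHDF1 and YTHDF2.

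Placed among the genes tested, YTHDC1 exceeded 96.4% and 94.7% of them in TPM in the A549 inputs and 76.3% and 74.4% in the A549/DDP inputs. YTHDF1 exceeded 73.2% to 77.0% of genes over the 4 libraries, and YTHDC2 56.5% to 63.6%. The highest place of any reader other than YTHDC1 was that of YTHDF3 in A549/DDP replicate 1, above 82.6% of genes.

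YTHDC1 held 62.7% and 60.5% of the summed YTH TPM in A549, or 61.6% ± 1.55, and 22.0% and 20.9% in A549/DDP, or 21.4% ± 0.767 (SD, n = 2 each). The summed TPM of the 5 genes was 466 and 346 in A549 and 214 and 206 in A549/DDP. The share of YTHDF3 was 11.0% ± 2.46 in A549 and 30.6% ± 0.109 in A549/DDP (SD, n = 2 each). On expected counts, which ignore length, YTHDC1 held 58.4% (95% Wilson interval 57.8% to 58.9%) and 54.7% (54.0% to 55.4%) in A549. In A549/DDP it held 22.3% (21.5% to 23.1%) and 24.5% (23.8% to 25.3%). These intervals cover counting error only. For YTHDF3 the share of expected counts was 11.9% and 11.1% in A549 and 20.7% and 18.6% in A549/DDP. The gain in the YTHDF3 share was thus smaller on counts than in TPM, which is scaled by the estimated transcript length. Shares of a sum move together, and the fall of YTHDC1 alone raises the shares of the other 4. In the second A549 pair YTHDC1 held 18.3% and 58.5% of the summed TPM, on 27 and 30 counts, so that pair gave no stable share.

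The gene-level test used expected counts, which RSEM estimates and which need not be whole. YTHDC1 had 15592 and 11379 counts in the A549 inputs and 2442 and 2913 in the A549/DDP inputs. Scaled to library size by TMM these were 474 and 321 CPM (library-scaled counts) against 82.4 and 83.5 CPM. The groups did not overlap, and the 2 A549/DDP libraries were nearly level while the A549 libraries were further apart. The mean of A549 was 397 ± 108 CPM and that of A549/DDP 82.9 ± 0.791 CPM (SD, n = 2 each).

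The log2 fold change of YTHDC1 was -2.26 ± 0.23 (SE), with a 95% confidence interval of -2.82 to -1.70 and an adjusted p of 0.00434 by the quasi-likelihood test of edgeR (Benjamini-Hochberg adjusted). On the linear scale A549 was 4.79-fold higher, with an interval of 3.25 to 7.07. In bulk RNA, fewer cells with the transcript and less of it per cell cannot be told apart. YTHDC1 was 1 of the 5 readers called, set against 14.9% of the 16406 genes tested called in either direction and 8.00% called lower in A549/DDP, and a count of 1 in 5 is not set apart from that background. A p-value smaller than that of YTHDC1 was found for 216 genes. Of the 775 genes with a mean CPM at least as high, 33 had a lower log2 fold change and 203 were called lower in A549/DDP.

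A ratio within each library, free of any scaling, gave the same picture. The YTHDC1 count over the summed counts of the other 4 readers was 1.40 and 1.21 in A549 and 0.287 and 0.325 in A549/DDP. In the second A549 pair it was 0.540 and 0.811, between the ranges of the deep inputs of the lines. With that shallow pair in place of the A549 inputs the log2 fold change of YTHDC1 was -1.52, still past the threshold, in a fit where the median of all genes shifted by 0.80 on the log2 scale.

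The other 4 readers did not pass the test in edgeR, where 0 of them had an unadjusted p under 0.05, and DESeq2 called 0. YTHDF1 had 3511 and 2943 counts in A549 and 2614 and 3284 in A549/DDP, and its CPM values of 107 and 83.0 enclosed those of A549/DDP, 88.2 and 94.1. Its log2 fold change was -0.06 ± 0.20 (SE), with an interval of -0.55 to 0.44 and an adjusted p of 0.897 in edgeR. The interval leaves room for an A549/DDP level from 0.682 to 1.35 times that of A549.

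YTHDF2 had 2502.83 and 1919 counts in A549 and 1943 and 1860 in A549/DDP, where 2502.83 was the only count of the 5 genes that was not whole in the deep inputs. Its CPM values of 76.1 and 54.1 overlapped 65.6 and 53.3. The log2 fold change was -0.13 ± 0.25 (SE), with an interval of -0.74 to 0.48 and an adjusted p of 0.790 in edgeR. For YTHDF2 too the libraries of 1 line differed more than the lines.

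YTHDF3, which shares many targets with its 2 paralogs, had 3181 and 2301 counts in A549 and 2266 and 2202 in A549/DDP, or 96.7 and 64.9 CPM against 76.4 and 63.1 CPM. The log2 fold change was -0.21 ± 0.26 (SE), with an interval of -0.83 to 0.41 and an adjusted p of 0.651 in edgeR. Its direction depended on the scale. Per length, both A549/DDP values were above both A549 values in TPM, and limma on log2(TPM + 1) gave 0.54, with an adjusted p of 0.369. With the second A549 pair the gene had a log2 fold change of -1.30 and an adjusted p of 0.0103 in edgeR, on 27 and 14 counts in that pair.

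YTHDC2 had 1931 and 2264 counts in A549 and 1691 and 1607 in A549/DDP, or 58.7 and 63.9 CPM against 57.0 and 46.1 CPM. Both A549/DDP libraries were below both A549 libraries, by little. The log2 fold change was -0.25 ± 0.22 (SE), with an interval of -0.78 to 0.28 and an adjusted p of 0.508 in edgeR. The interval allows an A549/DDP level from 0.582 to 1.22 times that of A549.

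**Figure D2:**
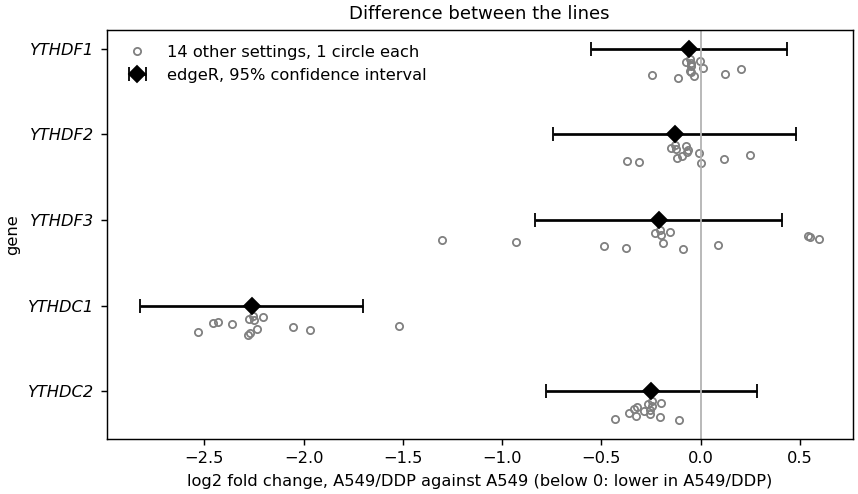
Log2 fold change of each YTH gene between the lines in edgeR (diamonds, bars for the 95% confidence interval) with 14 other settings as open circles. The interval of YTHDC1 runs from -2.82 to -1.70 and its circles from -2.53 to -1.52, whereas the intervals of the other 4 genes cross 0 and YTHDF3 has circles from -1.30 to 0.59.

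YTHDC1 stayed past the threshold in all 15 settings, with log2 fold changes from -2.53 to -1.52 and a highest adjusted p of 0.0375, that with both A549 pairs. YTHDF1, YTHDF2 and YTHDC2 passed it in none.

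RSEM also gives each gene a mean transcript length, weighted by the estimated abundance of its isoforms, which bears on which transcripts were read. For YTHDF3 it was 2456 and 3448 bases in A549 and 1921 and 1679 bases in A549/DDP. For YTHDC1 it was 2455 and 2652 bases in A549 and 2817 and 3138 bases in A549/DDP. The YTHDF3 transcripts were shorter and the YTHDC1 transcripts longer in A549/DDP, with no overlap of the lines in either gene. YTHDF2 went from 2743 and 2807 bases to 2659 and 2728 bases, a small shift without overlap. YTHDF1 was at 3266 to 3301 bases in all 4 libraries. The YTHDC2 values, 3591 and 3912 bases in A549 and 4665 and 3371 bases in A549/DDP, overlapped. No overlap was found for 3 of the 5 readers and for 30.5% of the 16406 genes tested, so the count rests on few genes, and the lengths are estimates with no test.

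**Figure D3:**
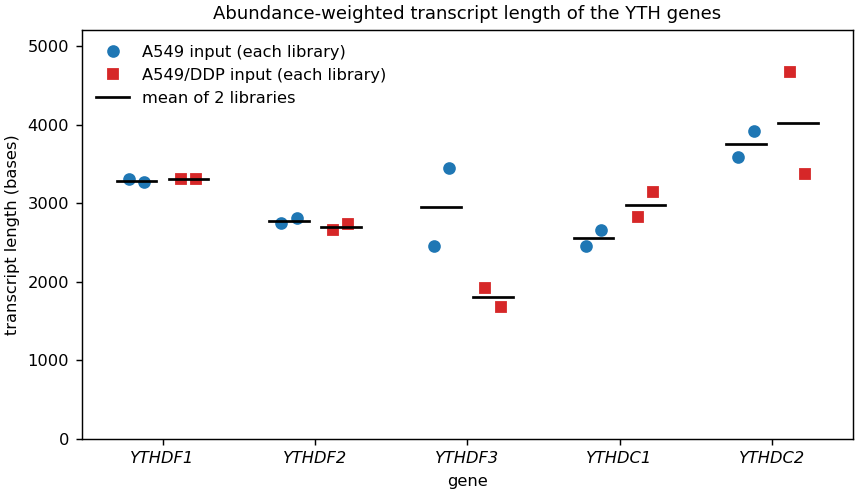
Abundance-weighted transcript length in bases of the 5 YTH genes in each A549 input (circles) and A549/DDP input (squares), with the mean of the 2 libraries as a bar. YTHDF3 lies at 2456 and 3448 bases in A549 and at 1679 and 1921 bases in A549/DDP, and YTHDF1 hardly moves.

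Genes with a pattern like that of each reader were sought over the 4 deep inputs, by the Euclidean distance between log2 CPM values centred on their mean, among 11296 genes with a mean of at least 5 CPM. Nearest to YTHDC1 were TRIO, a guanine nucleotide exchange factor, at a distance of 0.109, and NEDD4, a ubiquitin ligase, at 0.138. Their own log2 fold changes were -2.15 and -2.33. Nearest to YTHDF1 were EMC1 at 0.0244 and NAT14 at 0.0262, and nearest to YTHDF2 were MTCH1 at 0.0295 and TMEM39A at 0.0323. RAB22A at 0.0380 and NELFCD at 0.0492 were nearest to YTHDF3, and POC1A at 0.0492 and PIGV at 0.0520 to YTHDC2. The distance was taken over 4 libraries only.

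The messages of YTHDF1, YTHDF2, YTHDF3 and YTHDC1 were themselves called as m6A targets. In m6A-seq, stretches enriched over input are called as peaks, and the authors deposited 1 list per library, with positions on build hg38, exon blocks and a p-value but no height or read count. The depth of these libraries is therefore unknown. The lists held 26320 and 14576 peaks in A549 replicates 1 and 2, and 27244 and 10661 in A549/DDP replicates 1 and 2. They reached 43.7%, 30.6%, 40.7% and 22.2% of the genes tested in the inputs. Of those genes 13.9% had a peak in all 4 lists, as did 4 of the 5 readers. The 13.9% is over genes of every level and is not matched to the level of these readers. Their lowest place in TPM was that of YTHDF3 in A549 input replicate 2, above 66.7% of the genes tested. No test was run over the 2 lists of each line, and what follows is a description.

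YTHDF1, on the minus strand of chromosome 20 (63195429 to 63216131), had 2 and 2 peaks in A549 and 2 and 4 in A549/DDP. A single unbroken block of 1331 bases was called in each A549 list, at chr20:63202360-63203690 and chr20:63202409-63203739. In A549/DDP replicate 1 the block was 1502 bases long, and in replicate 2 the same stretch was called as 3 separate peaks of 494, 346 and 99 bases. A further region 99 bases from the 3′ end of the gene was called in 3 of the 4 lists. All 4 lists thus marked the same long stretch of YTHDF1, and it was broken up in the list with the fewest peaks. The p-values ran from 1.1e-08 in A549/DDP replicate 2 to 0.023 in A549/DDP replicate 1.

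YTHDF2, on the plus strand of chromosome 1 (28736624 to 28769775), had 1 and 4 peaks in A549 and 5 and 3 in A549/DDP. In every list a peak began at base 28742459, and the longest block had 1528, 941, 1485 and 1138 bases. The 5 peaks of A549/DDP replicate 1 covered 2725 bases, all with a p-value listed as 0, and 2 regions were called only there. In the other 3 lists 1486 to 1781 bases were covered.

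YTHDF3, on the plus strand of chromosome 8 (63168553 to 63212788), had 3 and 3 peaks in A549 and 5 and 3 in A549/DDP. Both A549 lists held an unbroken block of 1509 bases, and the longest blocks in A549/DDP were 1045 and 647 bases. A region 99 bases from the 5′ end of the gene was called in both A549 lists and in A549/DDP replicate 1, and another, 2785 bases from the 3′ end, in all 4. A long unbroken block was thus called in each of the 3 paralogs YTHDF1, YTHDF2 and YTHDF3.

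YTHDC1, on the minus strand of chromosome 4 (68310387 to 68350090), had 5 and 6 peaks in A549 and 7 and 4 in A549/DDP, more than any other reader in every list except in A549/DDP replicate 2, where YTHDF1 also had 4. Its blocks were short, at most 424, 350, 393 and 300 bases. Blocks are bounded by exons, and what part exon length had in the block lengths of these genes was not tested. Among genes with a peak, 25.8% and 8.34% in the A549 lists and 13.8% and 26.3% in the A549/DDP lists had at least as many peaks as YTHDC1. The p-values were between 1.3e-08 and 2.2e-07 in A549 and A549/DDP replicate 1, and between 2.8e-06 and 0.00011 in A549/DDP replicate 2. The list with the most YTHDC1 peaks and the list with the fewest were thus both of A549/DDP, and the lists differ in length.

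At its 5′ end YTHDC1 had a peak in both A549 lists, at chr4:68349890-68350089 and chr4:68349989-68350089. These peaks took in 49 of the 50 transcribed bases of the promoter window and none of the 250 bases upstream shown earlier. Neither A549/DDP list covered any of those 50 bases, and its nearest calls ended at 68349939 in replicate 1 and 68349989 in replicate 2. Over the whole gene 248 bases were called in both A549 lists and in no A549/DDP list, and 101 bases the other way round. YTHDC1 input RNA was 4.79-fold lower in A549/DDP, and what part that had in the calls was not tested.

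Of the bases called in any list, those in all 4 lists made up 45.2% for YTHDF1 (890 of 1971), 42.2% for YTHDF2 (1191 of 2823), 46.9% for YTHDF3 (1097 of 2340) and 5.60% for YTHDC1 (151 of 2697). Within a line the lists of YTHDC1 also had less in common. The bases in both lists over those in either were 45.8% in A549 and 16.0% in A549/DDP for YTHDC1, beside 76.4% to 86.3% in A549 and 50.1% to 55.5% in A549/DDP for the 3 YTHDF genes. Replicates of the same line thus placed the YTHDC1 peaks in different stretches, which limits any comparison of their positions between the lines.

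**Figure D4:**
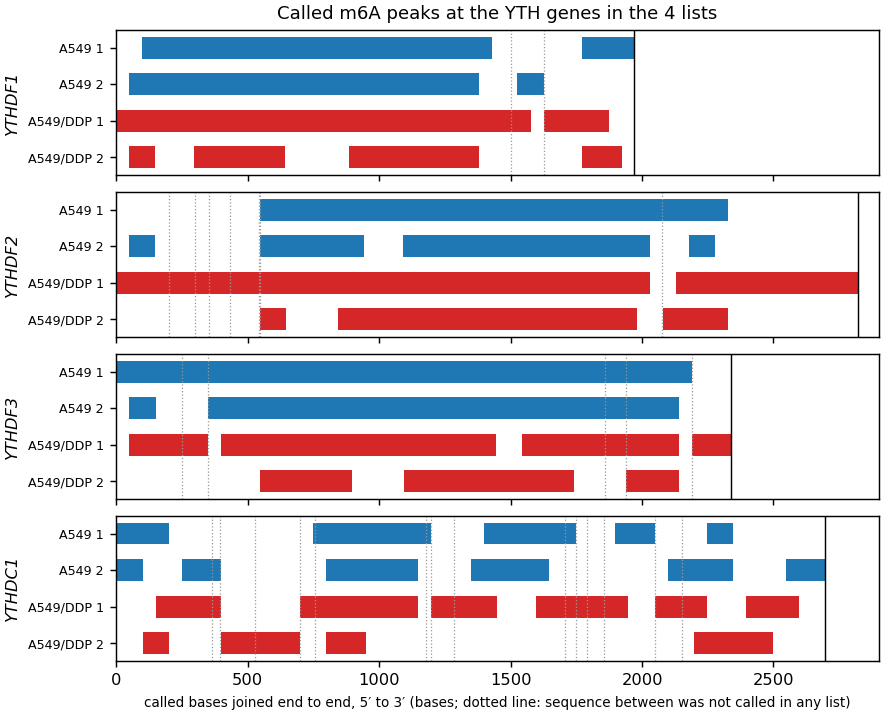
Bases called as m6A peaks at 4 YTH genes in the 4 lists, joined end to end from 5′ to 3′ (x axis in bases, 1 row per list, dotted lines where the sequence between was called in no list). Long stretches recur in all lists of YTHDF1, YTHDF2 and YTHDF3, whereas the shorter YTHDC1 stretches recur in all 4 lists over 151 of 2697 bases.

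Merged wherever blocks overlapped on a strand, the peaks of the 4 genes formed 15 regions, of which 7 were called in all 4 lists. Peaks were joined by chain, on at least 1 base shared by any 2 of them. Such a region therefore need not hold a base common to all 4 lists, and the YTHDC1 region at the 5′ end held none. No merged region was called in both lists of one line and in neither list of the other. Merging can join stretches of 1 line to those of the other, so this does not show that the lines shared every stretch. At YTHDC1 248 bases were called in both A549 lists only and 101 in both A549/DDP lists only. YTHDC2, on the plus strand of chromosome 5 (113513694 to 113595284), had no peak in any of the 4 lists. The same held for 18.6% of the 2717 genes tested with a mean CPM within 1.5 times its own, so the absence of a call was not unusual at that level. When peaks needed a p-value of 1e-05 or less, or when each list was cut to 10661 peaks, 1 of the 5 genes kept a peak in every list.

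The readers act on a mark that writers set and erasers remove, and through partners that bind RNA or act on it. Of 51 other genes of this pathway tested, 12 were called (23.5%), with 2 rises and 10 falls in A549/DDP. Over all genes tested 14.9% were called. Shares over all genes, here and for the lists below, are not matched to the level of the listed genes. The median log2 fold change over the 51 genes was -0.17, beside -0.00 over all genes tested. Leaving out a replicate moved the median of the 51 genes between -0.35 and -0.17, and that of all genes between -0.20 and 0.06. With the second A549 pair the balance of calls turned, to 15 rises and 10 falls and a median of 0.36. In that fit 2371 of all 13815 genes tested were called higher and 1387 lower, and the median of all genes shifted by 0.80. The median of the 5 readers was -0.21.

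Among 9 writers, the methyltransferase subunits and their adaptors, METTL16 and WTAP were called lower in A549/DDP. Of all genes tested 8.00% were called lower. WTAP, which anchors the writer complex in nuclear speckles, had a log2 fold change of -1.25 ± 0.26 (SE) and an adjusted p of 0.0277 in edgeR, and lost the call without either A549/DDP replicate. METTL16, a separate methyltransferase, was at -1.30, with an adjusted p of 0.0198, and lost the call without A549/DDP replicate 2. The catalytic subunit METTL3 was at 0.52 and its partner METTL14 at -0.56, with adjusted p of 0.217 and 0.282. Neither eraser passed the test in edgeR (1 unadjusted p under 0.05) or in DESeq2, FTO at 0.67 and ALKBH5 at 0.04, with adjusted p of 0.107 and 0.929.

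Of 8 other RNA binders linked to m6A, 4 were called and all were lower in A549/DDP. Over all genes tested the share called lower was 8.00%, which is not matched to the level of these binders. Among the 775 genes with a mean CPM at least that of YTHDC1, 203 were called lower. IGF2BP2 went from 116 ± 22.5 CPM to 18.2 ± 0.424 CPM (SD, n = 2 in each line), a log2 fold change of -2.67, and with the second A549 pair it was at -0.87 and not called. IGF2BP1 was at -0.89, IGF2BP3 at -0.93 and HNRNPC, a nuclear binder, at -0.91. Counts of HNRNPC, IGF2BP3 and WTAP were not whole in at least 3 of the 4 deep inputs, so reads there were shared out by RSEM and these values are less certain. IGF2BP1 and IGF2BP3 lost the call without either A549/DDP replicate, as did HNRNPC. IGF2BP1, IGF2BP3, METTL16 and EIF3A turned their direction with the second A549 pair, in the fit whose median of all genes shifted by 0.80. There EIF3A was called higher in A549/DDP, while IGF2BP1, IGF2BP3 and METTL16 were not called.

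None of the 12 CCR4-NOT subunits and decay factors linked to the YTHDF proteins was called in edgeR, where 3 had an unadjusted p under 0.05. DESeq2 called 2 of the 12, beside 4234 of all 16406 genes tested. In edgeR 14.9% of all genes tested were called, and the edgeR counts of this paragraph stand beside that share. Of 13 subunits of eIF3, the initiation factor to which YTHDF1 has been linked, EIF3K was called higher, at 1.48, and EIF3A and EIF3J lower, at -0.97 and -1.37. Of 5 nuclear partners of YTHDC1, the export receptor NXF1 was higher at 1.13 and the splicing factor SRSF3 lower at -0.82. Both lost the call without either A549/DDP replicate, and EIF3A lost it without A549/DDP replicate 1. For YTHDC2, the exonuclease XRN1 was lower at -1.68, MEIOC did not pass the test and RBM46 had 0 counts in every input. In limma on TPM or FPKM, IGF2BP1, IGF2BP3, NXF1, SRSF3 and XRN1 did not pass the threshold.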

How the data were processed

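The 5 genes, the lists and the tests were chosen with earlier results of these data known. Poly(A) RNA of each line was fragmented, pulled down for m6A or kept as input, and sequenced strand-specifically as paired reads of 150 bases. The submitters' notes name STAR, RSEM, bedtools and hg38; the peak caller is not given in the sources used here. For each input the authors deposited expected counts per gene (estimates, not normalized) with TPM and FPKM, both scaled by the authors for length and depth, and RSEM's transcript lengths. For each m6A-seq library they deposited a peak list with a p-value, raw or adjusted not said. Replicate numbers follow the sample labels, which for the A549 m6A-seq libraries are exchanged relative to the file names.

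Expected counts were rounded and scaled by TMM after filterByExpr, and edgeR 4.0.16 in R 4.3.3 tested 2 against 2 inputs (quasi-likelihood, no block), with p-values of 16406 genes adjusted by Benjamini-Hochberg. SEs are approximate, from the fold change and F. Recovery of known changes was checked on simulated data with less spread than these libraries, whose common biological coefficient of variation was 0.656. That check therefore does not show how well the test recovers changes here. Alternatives used DESeq2 1.42.0, limma 3.58.1 on log2 values with a pseudocount of 1 or 0.1 (mean TPM or FPKM of at least 1), upper-quartile scaling, other filters (1 count in all, or 10 in every library), the second or both A549 pairs, a replicate block, and leaving out each replicate. Peaks were assigned by the gene named in the lists, and positions are counted from 1. Named were the 5 genes, list members past an adjusted p of 0.05, METTL3, METTL14, WTAP, FTO and ALKBH5, and the 2 nearest genes per reader, with cell type markers. MEIOC and RBM46 fall outside this rule and were named after their values were seen. Symbols were found for 56948 of 58037 identifiers, and exon annotation was not used here. Tables and plots were made with Python 3.11.15, pandas 2.3.3, scipy 1.17.1 and matplotlib 3.10.9.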

Additional observations from a re-analysis of the deposited data

How the results depend on the processing

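YTHDC1 was past the threshold in all 15 settings. Leaving out a replicate moved its log2 fold change between -2.53 and -1.97, that of YTHDF1 between -0.24 and 0.12, YTHDF2 between -0.37 and 0.12, YTHDF3 between -0.49 and 0.09 and YTHDC2 between -0.43 and -0.11; a lone library was taken to vary like the other line. The YTHDF genes turned sign in some settings, none of them past the threshold there. YTHDF1 was at 0.01 (0.0103) in limma on FPKM and at 0.20 with the second A549 pair, where YTHDF2 was at 0.25. YTHDF1 and YTHDF2 were both at 0.12 without A549 input replicate 1, and YTHDF2 was at 0.00 (0.000952) without A549/DDP input replicate 2. YTHDF3 was at 0.54, 0.55 and 0.59 in limma on log2(TPM + 1), log2(TPM + 0.1) and log2(FPKM + 1), and at 0.09 (0.0895) without A549 input replicate 1. With the second pair it was called, at -1.30. The cause was not tested.

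Of all genes, 2437 were called in the edgeR fit, 4234 by DESeq2, 4010 without a filter, 1492 and 1177 by limma on TPM with a pseudocount of 1 and 0.1, 3758 with the second pair, 677 with both pairs and 2052 to 3809 on leaving out a replicate. With a replicate block 3536 were called, and 16 of the 51 pathway genes; the 2 same-numbered pairs share only a number (correlation of deviations 0.0227), and the block changed the call of no YTH gene. Of the pathway genes 19 were called by DESeq2, 19 without a filter, 25 with the second pair, 3 with both pairs and 5 to 20 on leaving out a replicate.

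The YTHDC1 share became 56.5% in A549 and 23.4% in A549/DDP on counts. In TPM it was 38.4% ± 28.4 (SD, n = 2) in the second pair, which gave no stable share. It ran from 60.5% to 62.7% in A549 and from 20.9% to 22.0% in A549/DDP over single libraries. Limited to p-values of 1e-05 or less, the lists held 6, 9, 17 and 7 peaks at YTH genes in place of 11, 15, 19 and 14; 1 gene had a peak in every list and 2 regions were in every list. With lists of equal length A549 replicate 1 held 5, 1 gene had a peak in every list and 3 regions were in every list. Without 1 list, 7 to 9 regions were in every list left, 0 to 2 in all A549 lists only and 0 to 3 in all A549/DDP lists only. Depth of the m6A-seq libraries is unknown, and the second A549 pair is too shallow for the YTH genes.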
